A study of Danio rerio with 4 samples.

Results

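The genes compared here were those listed as changed against uninjured retina at both 4 days post-injury (dpi) and 12 hours post-injury (hpi) in the zebrafish retina. A gene was included when its identifier stood in a deposited 4 dpi table and in a deposited 12 hpi table, which held for 186 of the 1885 genes in either. The shared genes were 12.7% of the 1466 genes listed at 4 dpi and 30.7% of the 605 listed at 12 hpi. Whole retinas of wild-type fish aged 10 months were sequenced in 4 libraries. The 4 dpi and 12 hpi retinas had been poked with a needle and received no agent, and the uninjured retina received neither needle nor agent. A library of 4 dpi retina from fish kept in 10 µM cyclopamine, a Smoothened inhibitor, was not used in this comparison. How many retinas went into a library is not given in the sources used here.

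When the zebrafish retina is injured, Müller glia (MG) leave their resting state, reprogram and divide to give MG-derived progenitor cells (MGPCs), which replace lost neurons. Such wound responses are known to begin with immediate early transcription factors such as those of the AP-1 family, with cytokine signals that act through Jak and Stat proteins, and with stress proteins. DNA synthesis, remodelling of the matrix and invasion by immune cells follow. A comparison of 4 dpi with 12 hpi sets these phases side by side.

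With a single library (n = 1) behind each condition, the differences below could not be checked against replicates or tested. Values are FPKM, fragments scaled to the length of the transcript and to the size of the library. The depth of the libraries is unknown. At 4 dpi a value stands for the whole gene, and at 12 hpi for 1 transcript of it, the listed transcript with the largest mean. Of the 186 genes, 94 had 1 annotated transcript, where this difference does not arise, and all 94 had the identical uninjured FPKM in both tables. Of the 79 genes with several transcripts and an uninjured value above 0, the listed transcript held a median of 83.6% of the uninjured FPKM of its gene, at least 95% in 26 of them and under 50% in 7. The tables hold only features that the authors called changed against the same uninjured library, so a gene absent from a table has no value here, and the direction against uninjured retina follows from the choice of genes. In whole retina, fewer cells of a type and less RNA per cell cannot be told apart. Of 76 genes on a photoreceptor list, 6 had a value here. In uninjured tissue *rcvrna*, which encodes a calcium sensor of photoreceptors, was at 237 FPKM and *guca1d*, a guanylate cyclase activator, at 165 FPKM. Lower on the same list were *nr2e3*, at 11.9 FPKM, and the listed transcript of *pde6g*, at 0.

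Most of the shared genes had levels within 2-fold of each other at the 2 times. On the scale of log2((4 dpi FPKM + 0.1)/(12 hpi FPKM + 0.1)), here called the log2 ratio, 183 genes were above 0 in both injured libraries. Of these, 20 (10.9%) were at least 2-fold higher at 4 dpi than at 12 hpi, 25 (13.7%) were at least 2-fold lower, and 138 (75.4%) lay within 2-fold. The direction against uninjured retina was also mostly the same: 118 genes were listed higher at both times, 64 were listed lower at both times, and 4 were listed in opposite directions. Both directions were taken against the same uninjured library, so they are not independent and part of this sameness is built in. The 118 genes were 13.2% of the 893 listed higher at 4 dpi and 30.6% of the 386 listed higher at 12 hpi. The 64 genes were 11.2% of the 573 listed lower at 4 dpi and 28.8% of the 222 listed lower at 12 hpi.

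The 118 genes listed higher at both times had a median of 14.3 FPKM at 4 dpi and 14.7 FPKM at 12 hpi, against 1.37 FPKM in uninjured retina. Their median log2 ratio was 0.11, with quartiles of -0.60 and 0.53, and 62 ratios were above 0 and 56 below. Within 2-fold lay 87 genes, while 12 were at least 2-fold higher at 4 dpi and 19 at least 2-fold lower. Over the 63 of these genes with 1 annotated transcript, 44 lay within 2-fold, 6 were higher and 13 lower, with a median log2 ratio of 0.08. The 64 genes listed lower at both times had a median of 6.57 FPKM at 4 dpi and 6.13 FPKM at 12 hpi, against 30.3 FPKM in uninjured retina, and a median log2 ratio of 0.01. Of them, 51 lay within 2-fold, 5 were at least 2-fold higher at 4 dpi, 5 at least 2-fold lower, and 3 were listed at 0 in an injured library. Over the 30 with 1 annotated transcript, the same counts were 26, 1, 2 and 1, with a median of -0.13. The 2-fold limits passed between *nav1b* (log2 ratio 1.09) and *aanat2* (0.997) on the higher side, and between *si:ch211-264g8.3* (-1.01) and *hbegfa* (-0.96) on the lower side, so genes next to a limit differed little.

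**Figure D1:**
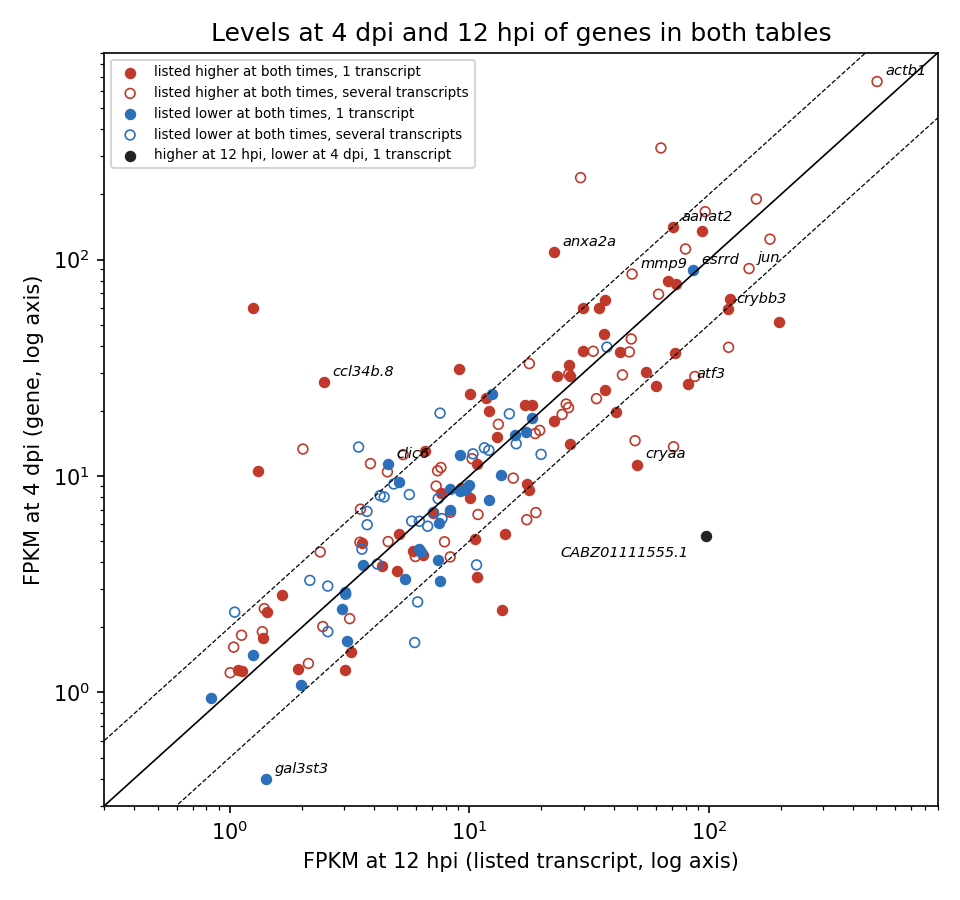
FPKM at 4 dpi (vertical log axis, per gene) against FPKM at 12 hpi (horizontal log axis, listed transcript) for 179 genes. Red points are genes listed higher at both times, blue points genes listed lower at both times, and the black point is listed lower at 4 dpi and higher at 12 hpi; filled points have 1 annotated transcript. The solid line marks equal values and the dashed lines 2-fold, and 7 genes under 0.01 FPKM in an injured library are left out. Most points of both colours lie between the dashed lines.

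Among the transcription factors, the immediate early genes with values at both times were lower at 4 dpi than at 12 hpi. Of the 55 genes of this list, 12 were in the 4 dpi tables and 16 in the 12 hpi tables, and 8 were in both. These 8 were 66.7% of the list's genes at 4 dpi and 50% of those at 12 hpi, where all genes gave 12.7% and 30.7%. All 8 were listed higher at both times. *atf3*, an activating transcription factor induced by stress, had 0.952 FPKM in uninjured retina, 81.8 FPKM at 12 hpi and 26.6 FPKM at 4 dpi, 3.07-fold lower at 4 dpi than at 12 hpi. Its relative *atf5a* had 8.99, 60.0 and 25.9 FPKM in uninjured retina, at 12 hpi and at 4 dpi. These 2 genes were the members past 2-fold, and both still stood above uninjured retina at 4 dpi.

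*jun*, the AP-1 subunit c-Jun, had 6.21 FPKM in uninjured retina, 147 FPKM at 12 hpi and 90.9 FPKM at 4 dpi. A second AP-1 subunit, *junbb*, had 12.8 FPKM in uninjured retina, 123 FPKM at 12 hpi and 65.4 FPKM at 4 dpi. *cebpb*, a C/EBP factor of inflammation and stress, had 0.861, 26.3 and 14.1 FPKM in uninjured, 12 hpi and 4 dpi retina. The order of levels was thus the same in all of them, highest at 12 hpi and lowest in uninjured retina. The Myc family genes shared it: *myclb* had 6.22, 54.8 and 30.1 FPKM in uninjured, 12 hpi and 4 dpi retina, and *mych* had 0.95, 26.0 and 20.7 FPKM. *klf6a*, a Krüppel-like factor, had the log2 ratio nearest to 0 of the 8, with 21.5 FPKM at 4 dpi and 25.4 FPKM at 12 hpi. Its listed transcript held 71.2% of the gene's uninjured FPKM, and that of *mych* 61.0%, so the size of these differences is uncertain. As log2 ratios to the uninjured value of each time's own table, *klf6a* had 1.71 at 4 dpi and 2.43 at 12 hpi. Those of *jun* were 3.85 and 4.54, so the rank of *klf6a* is not settled. The median log2 ratio of the 8 genes was -0.88, from -1.62 to -0.24, where 47.5% of the 118 genes listed higher at both times had a ratio below 0. All 5 of the 8 that have 1 annotated transcript were among those with lower values. Of the rest of the list, *fosab*, *fosl1a*, *junba*, *mycb*, *cebpd*, *nfil3*, *nfkb2* and *nr4a1* were listed higher at 12 hpi and were in no 4 dpi table, while *egr1* and *klf9* were listed lower, and *atf5b* and *klf2b* higher, at 4 dpi alone. Whether these differ between the times was not tested.

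Of 53 cytokine signalling genes, 11 were in the 4 dpi tables and 11 in the 12 hpi tables, and 4 were in both, 36.4% of each, where all genes gave 12.7% and 30.7%. *socs3b*, a feedback inhibitor of Jak and Stat signalling, had 2.39 FPKM in uninjured retina, 87.4 FPKM at 12 hpi and 28.8 FPKM at 4 dpi, and was the 1 member past 2-fold, with a log2 ratio of -1.60. *crlf1a*, which encodes a secreted partner of a cytokine of the interleukin-6 group, had 0.659 FPKM in uninjured retina, 43.6 FPKM at 12 hpi and 29.3 FPKM at 4 dpi. *hbegfa*, the heparin-binding EGF-like ligand, had 0.621, 8.33 and 4.23 FPKM in uninjured, 12 hpi and 4 dpi retina. The chemokine gene *cxcl8b.1* was listed at 0 in uninjured retina and had 1.79 FPKM at 4 dpi and 1.38 FPKM at 12 hpi. Other receptors and signal carriers of this list of cytokine signalling genes were listed at 1 time each. Among them, *jak1*, *stat3*, *cish*, *socs2* and *pim2* were listed higher at 12 hpi and *jak3*, *stat1b*, *stat2*, *stat6*, *lepr* and *csf1ra* at 4 dpi. *il6st*, the shared receptor of the interleukin-6 group, was listed both higher and lower at 12 hpi, through different transcripts, and not at 4 dpi.

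Further signals of the immune system had some of the largest differences. *C7 (1 to many)*, named in the tables after complement component C7, had 1.64 FPKM in uninjured retina, 196 FPKM at 12 hpi and 51.7 FPKM at 4 dpi, and was 3.79-fold lower at 4 dpi than at 12 hpi. It has 1 annotated transcript. The chemokine gene *ccl34a.4* had 14.6 FPKM at 4 dpi and 49.2 FPKM at 12 hpi and was listed at 0 in uninjured retina. Another gene of the same chemokine family, *ccl34b.8*, was also listed at 0 in uninjured retina but had the opposite order, with 27.2 FPKM at 4 dpi and 2.48 FPKM at 12 hpi, 10.6-fold higher at 4 dpi. Genes of a chemokine family can share reads, so the split between them is uncertain.

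**Figure D2:**
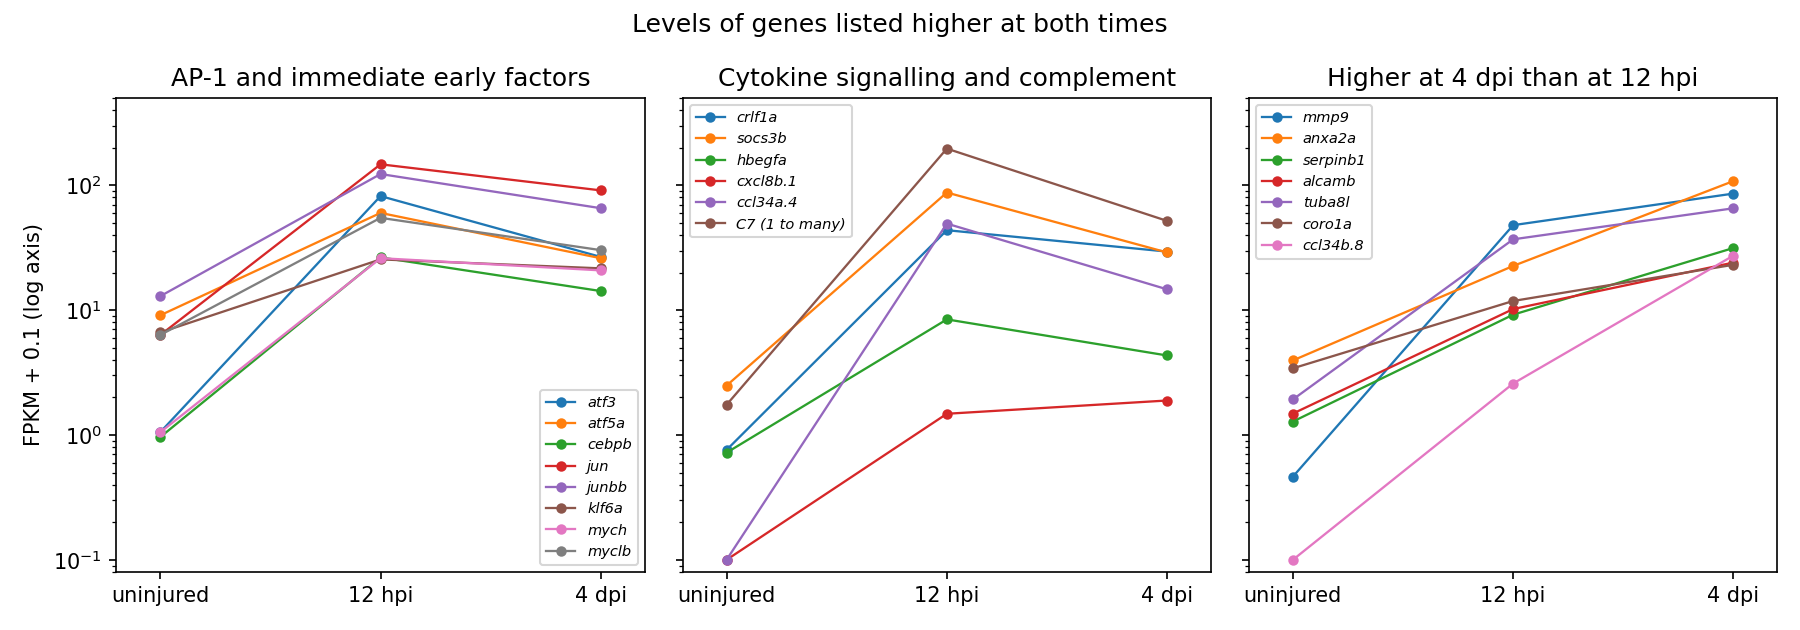
FPKM + 0.1 (log axis) in uninjured, 12 hpi and 4 dpi retina, 1 library each, for genes listed higher at both times; lines join the 3 values of a gene. The 8 early factors of the left panel peak at 12 hpi, as do 5 of the 6 genes of the middle panel, and the 7 genes of the right panel, placed there for their order, are highest at 4 dpi.

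A further list held 62 genes of the extracellular matrix, its proteases and their inhibitors, together with annexins, galectins and keratins. Of these, 19 were in the 4 dpi tables and 6 in the 12 hpi tables, all listed higher. The 4 in both were 21.1% and 66.7% of the list's genes at the 2 times, where all genes gave 12.7% and 30.7%. *mmp9*, a matrix metalloproteinase that the study follows in injured retina, had 0.363, 47.8 and 85.7 FPKM in uninjured, 12 hpi and 4 dpi retina. It was 1.79-fold higher at 4 dpi than at 12 hpi, within 2-fold. *mmp9* has 2 annotated transcripts, and the listed transcript held 100% of the gene's uninjured FPKM. Its share at 12 hpi is not known. In the study's own PCR time course the peak of *mmp9* fell between these 2 times, so the 2 values do not show a steady rise. *anxa2a*, a calcium-dependent membrane-binding annexin, had 3.85 FPKM in uninjured retina, 22.5 FPKM at 12 hpi and 108 FPKM at 4 dpi. Its 4.78-fold higher level at 4 dpi than at 12 hpi was the largest such step upward among the named genes with 1 annotated transcript and an uninjured value above 0. The keratin genes *krt8* and *krt18*, which encode partners in the filaments of simple epithelia, lie 93562 bases apart on chromosome 23. *krt8* had 166 FPKM at 4 dpi and 96.5 FPKM at 12 hpi, and *krt18* 43.0 FPKM at 4 dpi and 47.4 FPKM at 12 hpi. The 4 genes had a median log2 ratio of 0.81, and *krt18* was the 1 of them with a ratio below 0. As *mmp9* alone of the 4 is a matrix protease, the shares and the median do not describe matrix genes as such.

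Outside that list, *serpinb1*, an intracellular inhibitor of proteases of white blood cells, had 31.4 FPKM at 4 dpi and 9.09 FPKM at 12 hpi, against 1.18 FPKM in uninjured retina. *alcamb*, an adhesion molecule of growing axons and white blood cells, had 23.9 FPKM at 4 dpi and 10.1 FPKM at 12 hpi, against 1.38 FPKM in uninjured retina. Both have 1 annotated transcript and were past 2-fold. *plod2*, a collagen lysyl hydroxylase chosen after its values were seen, had 12.6 FPKM at 4 dpi and 5.30 FPKM at 12 hpi, but it has 4 annotated transcripts.

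Of 64 cytoskeletal genes, 19 were in the 4 dpi tables and 8 in the 12 hpi tables, and 5 in both, all listed higher. These were 26.3% and 62.5% of the list's genes at the 2 times, where all genes gave 12.7% and 30.7%. The 5 lay within 2-fold, as did 75.4% of all shared genes. *actb1*, cytoplasmic β-actin, was the most abundant of all shared genes, with 665 FPKM at 4 dpi and 503 FPKM at 12 hpi. *tuba8l*, an α-tubulin, had 1.82 FPKM in uninjured retina, 36.8 FPKM at 12 hpi and 65.3 FPKM at 4 dpi, with 1 annotated transcript. The actin-binding genes *flna*, *tpm3* and *cnn2* had 29.5, 37.7 and 16.2 FPKM at 4 dpi and 26.0, 32.9 and 19.7 FPKM at 12 hpi. For *flna* and *tpm3* the sign depends on the transcript used: as differences of each time's log2 ratio to the uninjured value of its own table, they were -0.79 and -0.47 in place of 0.18 and 0.20. The actin and tubulin genes have close relatives that can share reads. *gap43*, a growth cone protein of regrowing axons chosen after its values were seen, had 45.5 FPKM at 4 dpi and 36.5 FPKM at 12 hpi, against 3.89 FPKM in uninjured retina, and has 1 annotated transcript.

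A list of chaperones and the unfolded protein response held 59 stress protein genes. Of these, 7 were in the 4 dpi tables and 14 in the 12 hpi tables, all listed higher. The 5 in both were 71.4% and 35.7% of the list's genes at the 2 times, where all genes gave 12.7% and 30.7%. *hsp70.2*, an Hsp70 chaperone with near copies in the genome, had 0.513 FPKM in uninjured retina, 17.4 FPKM at 12 hpi and 6.28 FPKM at 4 dpi (log2 ratio -1.45). Besides *hsp70.2*, *atf3* belonged to this list and was past 2-fold in the same direction. *trib3*, a pseudokinase of the unfolded protein response, had 15.17 FPKM at 4 dpi and 13.1 FPKM at 12 hpi. *txnipa*, an inhibitor of thioredoxin, had 59.6 FPKM at 4 dpi and 29.9 FPKM at 12 hpi, against 9.25 FPKM in uninjured retina, and *cryabb*, a small heat shock protein that is also a lens crystallin, 17.3 FPKM at 4 dpi and 13.2 FPKM at 12 hpi. The list thus had 3 log2 ratios above 0 and 2 below, though that of *cryabb* was -0.23 as a difference of ratios to uninjured retina. *hspa5*, *hyou1*, *hsp90b1*, *hsp70l* and *dnajb1b* were listed higher at 12 hpi and were in no 4 dpi table.

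Some lists with many genes in the 4 dpi tables had few or none among the shared genes. Of 74 DNA replication and cell cycle genes, 31 were listed higher at 4 dpi and none of these was in a 12 hpi table. The 21 genes for neuronal channels, receptors and synapses in the 4 dpi tables, all listed lower, were likewise in no 12 hpi table. Of 21 MG and gliosis genes at 4 dpi, *tuba8l* alone was in both tables (4.76%), and of 20 interferon and antigen presentation genes, *mhc2dab* alone (5%). The background over all genes was 12.7%. Because the 12 hpi tables list transcripts and the 4 dpi tables genes, absence from a table is not a measured lack of change.

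**Figure D3:**
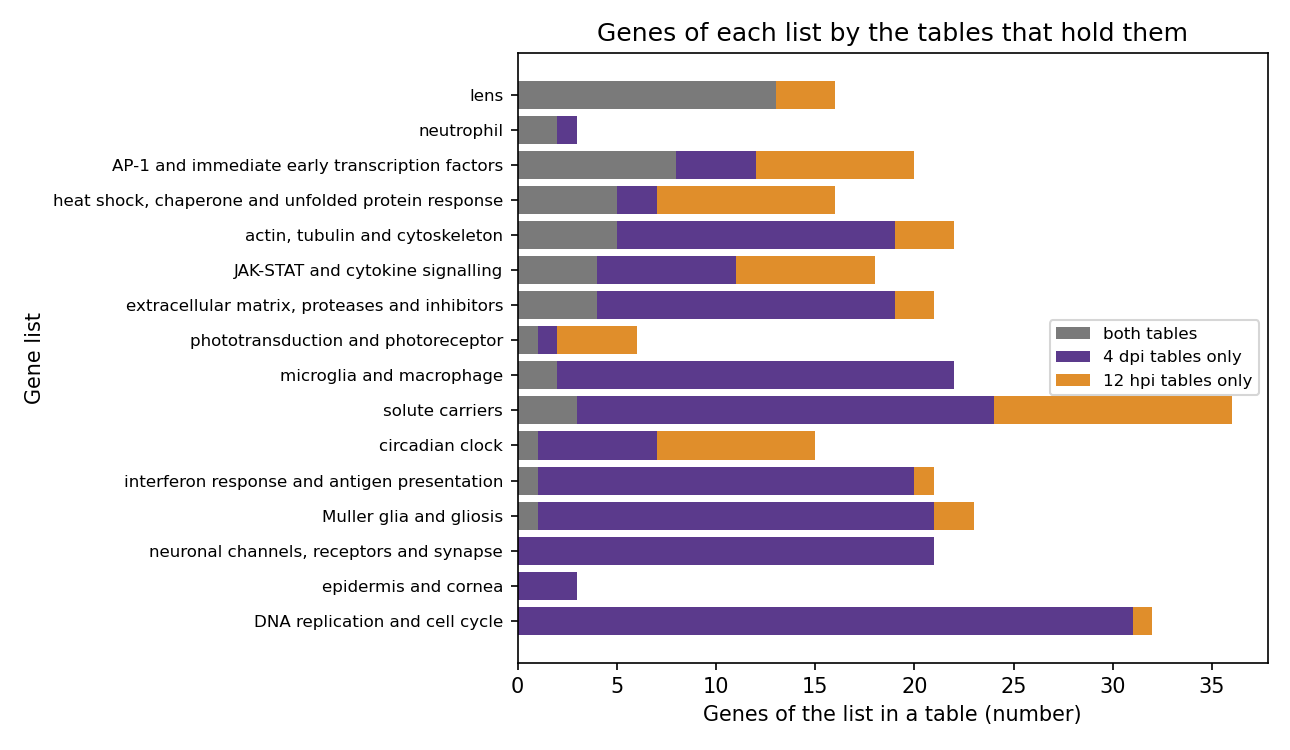
Number of genes of each list (horizontal axis) in both tables (grey), in the 4 dpi tables alone (purple) and in the 12 hpi tables alone (orange), leaving out lists with fewer than 3 listed genes. The grey share is largest for lens genes, with 13 of 16, and 0 of 32 DNA replication and cell cycle genes are grey.

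Lens genes were the list most fully shared. All 13 of its genes in the 4 dpi tables were also in the 12 hpi tables, where the list had 16. Thus 100% and 81.2% were shared, against 12.7% and 30.7% of all genes. All 13 were listed higher at both times. Crystallins are the packed structural proteins of the lens, and some are also made as chaperones in other cells. With the lens crystallins *crygm2b* and *crygm2c* and the lens connexin *cx44.1*, chosen after their values were seen, the 16 genes summed to 279 FPKM at 4 dpi and 554 FPKM at 12 hpi, against 5.49 FPKM in uninjured retina, where 12 of the 16 were listed at 0. The summed lens level was thus lower at 4 dpi than at 12 hpi, and the part that lens tissue had in these values was not tested.

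The ratios of the lens genes between the times ranged widely. *cryaa*, the αA-crystallin, had 11.3 FPKM at 4 dpi against 49.99 FPKM at 12 hpi (log2 ratio -2.14), and *crybb3*, a β-crystallin, had 58.8 FPKM at 4 dpi against 121 FPKM at 12 hpi (log2 ratio -1.03). *crygs2*, a γS-crystallin, had 69.2 FPKM at 4 dpi and 61.7 FPKM at 12 hpi. *lim2.1*, a lens membrane protein gene, had 4.98 FPKM at 4 dpi and 4.59 FPKM at 12 hpi. *pitx3*, a homeobox factor of the developing lens, had 1.84 FPKM at 4 dpi and 1.12 FPKM at 12 hpi, and *cx44.1* 4.46 FPKM at 4 dpi and 2.39 FPKM at 12 hpi. Of the 16, 10 ratios were below 0 and 6 above, and 7 genes were at least 2-fold lower at 4 dpi. All 6 genes with a ratio above 0 have several annotated transcripts, so a gene value stands against that of 1 transcript, and all 7 genes with 1 annotated transcript had ratios below 0. The median of the 13 genes of the list was -0.37, and -1.03 over those with 1 annotated transcript. *crygm7*, *crygm2c* and *crygm2b* lie within a stretch of chromosome 9 between 22182222 and 22258495 in the coordinates of the tables (GRCz10), and *crygs4* and *crygm3* were given one and the same interval on opposite strands, 22533725 to 22555373. Such neighbouring γ-crystallins are close copies, so their single values are uncertain.

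**Figure D4:**
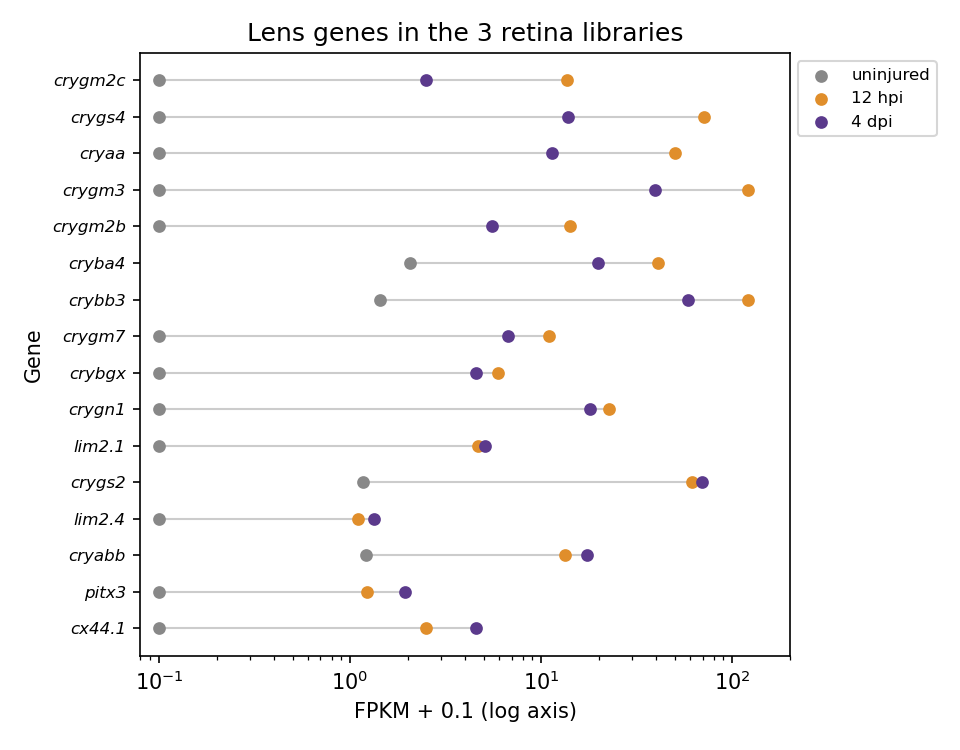
FPKM + 0.1 (log axis) of the 16 lens genes in uninjured (grey), 12 hpi (orange) and 4 dpi (purple) retina, 1 library each, ordered by the log2 ratio of 4 dpi over 12 hpi. From *crygm2c* to *crygn1* the 4 dpi point lies left of the 12 hpi point, and from *lim2.1* to *cx44.1* right of it; 12 genes are at 0 in uninjured retina and drawn at 0.1.

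Without the 16 lens genes, 102 genes listed higher at both times remained, with a median log2 ratio of 0.15 against -0.53 for the lens genes. Of these 102, 12 were at least 2-fold lower at 4 dpi, so lens genes made up 7 of the 19. However, *crygm2b* and *crygm2c*, chosen after their values were seen, are 2 of these 7. The 13 genes of the list alone had 5 at least 2-fold lower and a median of -0.37. Whether lens genes differ from the other genes was not tested.

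Of 40 microglia and macrophage genes, 22 were in the 4 dpi tables, all listed higher, and *coro1a* and *ccl34a.4* were the 2 in both. They were 9.09% of the list's genes at 4 dpi, against 12.7% of all genes, and the 2 that it had at 12 hpi. *coro1a*, an actin-binding coronin of white blood cells, had 3.32 FPKM in uninjured retina, 11.7 FPKM at 12 hpi and 23.0 FPKM at 4 dpi. Of 11 neutrophil genes, 3 were in the 4 dpi tables and 2 in the 12 hpi tables, and the 2 were in both. These were 66.7% and 100% of the list's genes at 4 dpi and 12 hpi, against 12.7% and 30.7% of all genes. As they rest on 2 genes, these shares do not set the neutrophil list apart from all genes. *lect2l*, a chemotactic factor, had 4.32 FPKM at 4 dpi and 6.44 FPKM at 12 hpi and was listed at 0 in uninjured retina, and *srgn*, a granule proteoglycan, had 19.2 FPKM at 4 dpi and 24.4 FPKM at 12 hpi. The summed level of the 2 microglia genes was 37.5 FPKM at 4 dpi and 60.9 FPKM at 12 hpi, a difference carried by *ccl34a.4*, while *coro1a* had the opposite order, and that of the 2 neutrophil genes 23.6 and 30.8 FPKM. No marker of red blood cells, pigment epithelium, skeletal muscle, epidermis or endothelium was in both tables, but these lists had few genes in either. Red blood cells had 2, listed higher at 12 hpi, and pigment epithelium had 0. Epidermis had 3 and endothelium 2, listed higher at 4 dpi, and muscle 1, listed lower at 4 dpi. Their absence from the shared genes does not measure these cells. The part of invading cells in the shared genes was not tested.

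Some further groups were formed after the values were seen. The integrin genes *itgb1b*, *itga6a* and *itga5*, receptors for the matrix, had 37.9, 8.99 and 2.19 FPKM at 4 dpi and 29.8, 7.27 and 3.17 FPKM at 12 hpi. Together with *sdc4*, *chl1b*, *alcamb*, *cd63*, *tspan36* and *adam8b*, 8 of these 9 surface and adhesion genes lay within 2-fold, with *alcamb* the exception, near the 75.4% of all shared genes. For *itga6a* the sign depends on the transcript used, as the listed transcript held 56.8% of the gene's uninjured FPKM. Its log2 ratios to the uninjured value of each time's own table were 2.42 at 4 dpi and 2.87 at 12 hpi, the opposite order. The ferritin genes *zgc:92066* and *zgc:198419*, whose products store iron, are neighbours on chromosome 3, 4175 bases apart. They had 112 and 20.0 FPKM at 4 dpi and 79.9 and 12.14 FPKM at 12 hpi, both within 2-fold. *fabp11a*, a fatty acid binding protein, had 135 FPKM at 4 dpi and 93.6 FPKM at 12 hpi, against 1.54 FPKM in uninjured retina.

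By the rule of the smallest difference, *gna12a*, *steap4*, *cd63*, *ZFP36* and *nup210* were the most level of the genes listed higher at both times that have 1 annotated transcript and a symbol of their own. *cd63*, a tetraspanin of endosomes, had 76.8 FPKM at 4 dpi and 72.7 FPKM at 12 hpi, against 10.1 FPKM in uninjured retina. *ZFP36*, a protein that destabilises cytokine messages, had 11.4 FPKM at 4 dpi and 10.7 FPKM at 12 hpi, and *nup210*, a nuclear pore protein, 5.43 and 5.07 FPKM. *gna12a*, a G protein subunit, had 6.78 FPKM at 4 dpi and 7.04 FPKM at 12 hpi, and *steap4*, a metalloreductase, 8.83 and 9.20 FPKM.

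Of the photoreceptor and the clock lists, 1 gene each was in both tables. This was 1 of the 2 photoreceptor genes listed at 4 dpi (50%) and 1 of the 5 listed at 12 hpi (20%). For the clock list it was 1 of 7 (14.3%) and 1 of 9 (11.1%), where all genes gave 12.7% and 30.7%. Shares that rest on 1 gene do not set a list apart from all genes. *nr2e3*, a nuclear receptor of rod photoreceptors, had 11.9 FPKM in uninjured retina, 72.3 FPKM at 12 hpi and 37.2 FPKM at 4 dpi. Other genes of the photoreceptor list, in 1 table each, went both ways: *rcvrna* and *grk1b* were listed lower at 12 hpi, at 63.6 and 4.45 FPKM against 237 and 53.8 FPKM in uninjured retina, and *guca1d* lower at 4 dpi, at 48.4 FPKM against 165 FPKM, while *guca1a* and *pde6g* were listed higher at 12 hpi. *aanat2*, an enzyme of melatonin synthesis whose message is known to follow the time of day, had 26.8, 70.8 and 141 FPKM in uninjured, 12 hpi and 4 dpi retina, just under the 2-fold limit between the injured libraries. The hour at which retinas were collected is not given in the sources used here. Time of day and time after injury thus cannot be told apart, for this gene or for others. Among the other clock genes, *per1a*, *per2*, *per3*, *nr1d1*, *bhlhe41* and *hlfa* were listed lower at 4 dpi alone. At 12 hpi alone, *arntl1b*, *npas2*, *rorca*, *rorcb* and *nr1d2a* were listed lower, and *nr1d4a*, *nr1d4b* and *nfil3* higher.

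Several of the largest steps upward were in genes without a symbol of their own, chosen after their values were seen. *si:ch73-368j24.14* was listed at 0 in uninjured retina and had 59.9 FPKM at 4 dpi against 1.26 FPKM at 12 hpi (log2 ratio 5.47), with 1 annotated transcript. *si:dkey-119g10.3* likewise had 10.5 FPKM at 4 dpi and 1.32 FPKM at 12 hpi and was listed at 0 in uninjured retina. *si:ch211-222l21.1* had 239 FPKM at 4 dpi and 29.1 FPKM at 12 hpi, with 5 annotated transcripts. For *rps28*, a ribosomal protein of the small subunit, the listed transcript had 0.00153 FPKM in uninjured retina where the gene had 68.1 FPKM, so its 328 FPKM at 4 dpi and 63.1 FPKM at 12 hpi do not measure the same RNA. Of the 12 genes at least 2-fold higher at 4 dpi, 4 were listed at 0 in uninjured retina, as were 9 of the 19 at least 2-fold lower.

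Most genes listed lower at both times were at similar levels in the injured libraries. *esrrd*, an orphan nuclear receptor related to estrogen receptors, had the highest level of these in uninjured retina, with 344 FPKM, and had 85.6 FPKM at 12 hpi and 89.3 FPKM at 4 dpi. *srebf1*, a regulator of lipid synthesis, had 54.6, 17.2 and 16.1 FPKM in uninjured, 12 hpi and 4 dpi retina. *irs1*, an adaptor of insulin signalling, had 28.6, 8.31 and 6.93 FPKM in the same order. These genes, chosen after their values were seen, have 1 annotated transcript each and had already reached at 12 hpi about the level they had at 4 dpi.

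A few of these genes were lower still at 4 dpi. *gal3st3*, a sulfotransferase of sugar chains, had 0.398 FPKM at 4 dpi and 1.41 FPKM at 12 hpi, against 6.04 FPKM in uninjured retina. With a pseudocount of 1 FPKM in place of 0.1 its log2 ratio was -0.79 in place of -1.60. *MAP4 (1 to many)*, named after a microtubule-associated protein, had 3.29 FPKM at 4 dpi and 7.54 FPKM at 12 hpi, against 30.1 FPKM in uninjured retina. *slc8a2b*, a sodium and calcium exchanger of neurons with 2 annotated transcripts, had 1.70 FPKM at 4 dpi and 5.92 FPKM at 12 hpi, against 22.2 FPKM in uninjured retina. The solute carriers in both tables were *slc8a2b*, *slco5a2* and the cystine transporter *slc7a11*. They were 3 of the 24 at 4 dpi (12.5%) and of the 15 at 12 hpi (20%), where all genes gave 12.7% and 30.7%.

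*rereb* and *zfhx3*, which encode nuclear regulators of transcription, had 4.08 and 1.73 FPKM at 4 dpi and 7.41 and 3.09 FPKM at 12 hpi. *cacna2d2a*, an auxiliary subunit of voltage-gated calcium channels, had 7.76 FPKM at 4 dpi and 12.08 FPKM at 12 hpi, against 36.3 FPKM in uninjured retina. Its neighbour on chromosome 6, *CACNA2D2 (1 to many)*, starts 9363 bases away on the same strand and had 3.36 FPKM at 4 dpi and 5.37 FPKM at 12 hpi. Their log2 ratios of -0.63 and -0.66 were nearly equal, and the tables name both after the same family member. *RYR2*, a calcium release channel, had 4.61 FPKM at 4 dpi and 6.17 FPKM at 12 hpi. It stands in a group of 8 calcium handling genes formed after their values were seen, of which 7 were above 0.01 FPKM in both injured libraries, 5 with a log2 ratio below 0 and 2 above. Of the 5, *atp2b2* was level, at -0.003. Over all genes listed lower at both times, 30 ratios were below 0 and 31 above. Among those with 1 annotated transcript, as *cacna2d2a*, *CACNA2D2 (1 to many)* and *RYR2* have, 18 were below 0 and 11 above. Among those with several, 12 were below 0 and 20 above. Whether the group differs from these was not tested.

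Others were nearer to the uninjured level at 4 dpi than at 12 hpi. *clic6*, a chloride intracellular channel protein with 1 annotated transcript, had 45.6 FPKM in uninjured retina, 4.57 FPKM at 12 hpi and 11.3 FPKM at 4 dpi, and was 2.45-fold higher at 4 dpi than at 12 hpi. *RAP1GDS1 (1 to many)*, named after an exchange factor of small GTPases, had 81.2, 12.5 and 23.8 FPKM, and *atp1b4*, a β-subunit of the sodium pump family, 27.0, 5.08 and 9.43 FPKM in uninjured, 12 hpi and 4 dpi retina. *ankrd33bb*, an ankyrin repeat gene, had 12.5 FPKM at 4 dpi and 9.18 FPKM at 12 hpi, *cyp19a1b*, the brain aromatase, typed as a pseudogene in the tables, 1.496 and 1.25 FPKM, and *SEMA4D*, a semaphorin of axon guidance, 3.90 and 3.59 FPKM. For *guca1e*, a guanylate cyclase activator of photoreceptors, the values were 13.6 FPKM at 4 dpi and 3.45 FPKM at 12 hpi, but the listed transcript held 40.6 of the 77.0 FPKM of the gene in uninjured retina.

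**Figure D5:**
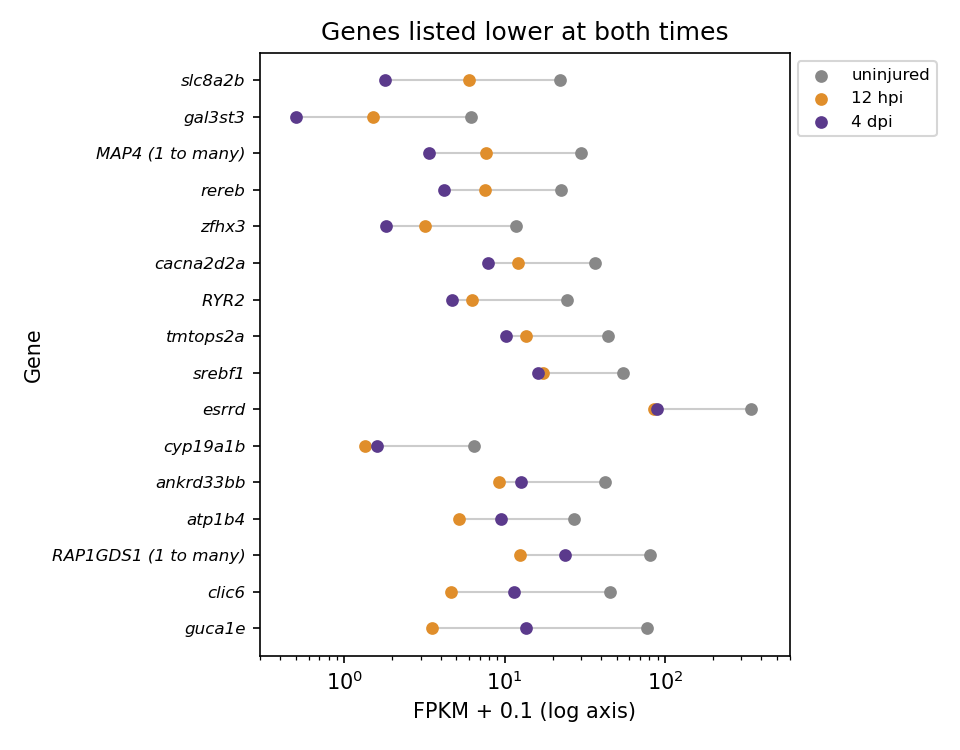
FPKM + 0.1 (log axis) of 16 genes listed lower at both times in uninjured (grey), 12 hpi (orange) and 4 dpi (purple) retina, 1 library each. From *slc8a2b* to *srebf1* the 4 dpi point lies left of the 12 hpi point, from *esrrd* to *guca1e* right of it, and every uninjured point is the highest of its gene.

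The genes listed higher and lower at both times differed in length, as did all listed genes. The 118 higher genes spanned a median of 9.62 kb of genome and the 64 lower genes 40.7 kb, and 18 (15.3%) and 27 (42.2%) of them spanned over 50 kb. Genes listed at 4 dpi and not the same way at 12 hpi had medians of 10.1 kb for the higher and 50.8 kb for the lower. At 12 hpi the genes not listed the same way at 4 dpi had medians of 9.68 kb and 27.0 kb. RNA quality is not measured by these tables. Of the 118 higher genes, 28.0% were listed at 0 in uninjured retina, against 10.3% of the other genes listed higher at 4 dpi and 31.0% of the others at 12 hpi.

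Of the genes in opposite directions, 1 was listed lower at 4 dpi and higher at 12 hpi, 0.259% of the 386. *CABZ01111555.1*, an uncharacterised protein gene with 1 annotated transcript on chromosome 17 (40683 to 41722), had 19.9 FPKM in uninjured retina, 97.3 FPKM at 12 hpi and 5.26 FPKM at 4 dpi, 18.2-fold lower at 4 dpi than at 12 hpi.

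The other 3, which were 1.35% of the 222 genes listed lower at 12 hpi, were listed higher at 4 dpi. *mhc2dab*, a class II antigen-presenting molecule, had 19.7 FPKM at 4 dpi, against 3.33 FPKM in uninjured retina. *prdx1*, a peroxiredoxin, had 24.5 FPKM at 4 dpi, against 3.51 FPKM in uninjured retina. At 12 hpi both values were next to 0, with 0.0002 FPKM for *mhc2dab* and 0.000331 FPKM for *prdx1*. Each has several annotated transcripts, of which 1 was listed at 12 hpi. A near-zero estimate for 1 transcript says nothing of the others of that gene, which have no value here, so no fold between the times is given and the gene level at 12 hpi is not known. The same holds for *dscama*, *atp2b3b* and *wnk1b* among the genes listed lower at both times, at 4.59e-05, 0 and 0 FPKM at 12 hpi, against gene values of 3.24, 12.7 and 6.35 FPKM at 4 dpi. In uninjured retina the listed transcript held 99.9% of the gene FPKM for *mhc2dab* and 89.9% for *prdx1*. For *dscama*, *atp2b3b* and *wnk1b* it held 4.57 of 10.3, 1.72 of 45.4 and 1.11 of 31.3 FPKM.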

How the data were processed

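Total RNA of whole retina was sequenced from 4 libraries, 1 per condition. The tables the authors deposited give FPKM for transcripts at 12 hpi and for genes at 4 dpi, with an uninjured column in each. The submitters' processing notes name Bowtie2 2.2.2, TopHat2 2.1.0, Cufflinks 2.2.1 and the build GRCz10; the scaling between libraries is not given in the sources used here. Listed features had p-values, not adjusted, no higher than 0.05 and about 1 FPKM or more in the higher library. Their columns of the authors' own fold changes, p-values and q-values were not used. They do not say whether coordinates count from 0 or 1.

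Genes were matched by identifier, and the log2 ratio was computed with a pseudocount of 0.1 FPKM (Python 3.11.15, pandas 2.3.3). With 1 library per condition no test was made. The classification code was run on simulated data whose folds lay away from the 2-fold limit and whose values were above 0. That run does not cover genes next to the limit, values near 0 or the difference between a transcript and its gene. Named genes were those in opposite directions (1 of them is not reported here), the 6 largest and 6 smallest log2 ratios per direction and the 5 nearest to 0 among genes with 1 annotated transcript, a symbol of their own and at least 1 FPKM, and genes of the lists. Members and lists were chosen with earlier results of these data known. Alternatives were pseudocounts, summed transcripts, ratios to uninjured retina, a minimum level, a centring and other limits.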

Additional observations from a re-analysis of the deposited data

Results flagged for a closer look

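Genes were picked out here where the direction listed against uninjured retina was not the same at the 2 times. At 4 dpi the log2 ratio to uninjured retina was -1.90 for *CABZ01111555.1*, listed higher at 12 hpi, and 2.53 for *mhc2dab* and 2.77 for *prdx1*, listed lower at 12 hpi. These differences were not tested, since each condition has 1 library. For *CABZ01111555.1* both tables measure the same single transcript. For *mhc2dab* and *prdx1*, 1 of several transcripts was measured at 12 hpi, so their gene level at that time is not known.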

How the results depend on the processing

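Medians of the log2 ratio stayed within 1.5-fold of the reported values under each alternative, between -0.14 and 0.16 for genes listed higher at both times and between -0.13 and 0.06 for genes listed lower, so their sign is not settled. The counts moved most with the limit. At 4-fold in place of 2-fold, 7 of the higher genes were higher at 4 dpi and 3 lower, and 1 and 0 of the lower genes; at 1.5-fold the counts were 29 and 30, and 13 and 11. With 1 annotated transcript, fewer genes by construction, they were 6 higher at 4 dpi and 44 within 2-fold of the higher genes, 1, 26 and 2 (higher, within, lower) of the lower genes, and 1 in opposite directions. As ratios to uninjured retina, and with a minimum of 5 FPKM, 3 lower genes were higher at 4 dpi; with a pseudocount of 1 FPKM, 2 were lower. Alternatives added after the data were seen were 1 transcript or 95% of the gene in it (6 higher genes higher at 4 dpi, 1 and 31 lower genes higher and within), values under 0.01 FPKM counted apart (1 gene in opposite directions) and no lens genes (12 higher genes lower at 4 dpi). All 8 immediate early genes were lower at 4 dpi under each alternative that kept all 8. No paired analysis was possible because there is a single library behind every condition. Without known depth, FPKM values carry no interval.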
